A study of Drosophila melanogaster with 56 samples.

Results

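The maternal-to-zygotic transition was followed in *Drosophila melanogaster* embryos as the difference in RNA level between 3 h and 2 h after egg-laying. The 8 samples compared, 4 of 3 h and 4 of 2 h, were chosen by the time in their labels from the 56 samples of a series of 14 time points between 0 and 20 h. All were whole embryos of wild-type Oregon R flies kept at 25 °C in population cages, laid within 30 min, dechorionated with hypochlorite, and differing only in the time they were left to develop. The study labels the 4 samples of a time point as biological quadruplicates. Poly(A) RNA was sequenced, and the authors deposited for each sample the number of reads on each gene, without normalization. The gene annotation had an entry for 10861 of the 11065 genes tested.

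In the fly, the egg is loaded with mRNA by the nurse cells of the ovary, and the first nuclear cycles run on this maternal supply with little transcription from the embryo's own genome. Control then passes to the zygotic genome. Maternal mRNAs are cleared, in part by the RNA-binding protein Smaug and the CCR4-NOT deadenylase, and the genome is opened and activated by factors such as Zelda. In the same interval the syncytial nuclei are enclosed by membranes to form the cellular blastoderm, and gastrulation follows. The genes were therefore described by role, first the zygotic patterning genes, then the cellularization genes, and then the RNAs supplied by the mother.

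The libraries held 15124700 to 17793243 counts on genes at 3 h and 16829534 to 18146759 at 2 h. A gene at 3 counts was thus at 0.165 to 0.198 CPM, a floor that covers counting error only. Between 11376 and 12872 genes had at least 1 count at 3 h, against 11348 to 11409 at 2 h. Reads outside annotated exons made up at most 1.203% of a library at 3 h and at most 0.643% at 2 h. Levels are given as RPKM, that is, counts relative to the length of the exons and to all counts on genes of the sample, so that they compare genes per length. In whole embryos, fewer cells of a type and less RNA per cell cannot be told apart, nor can the amount of an RNA and the length of its poly(A) tail where poly(A) RNA was selected.

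The 3 h replicates differed from each other more than the 2 h replicates did. Spearman correlations between replicates, over the 11065 genes tested, were 0.943 to 0.989 at 3 h and 0.984 to 0.992 at 2 h. Placed on the axis from the mean of 2 h (position 0) to the mean of 4 h (position 1), the 3 h replicates 1 to 4 stood at 0.808, 0.632, 1.02 and 1.10. The 2 h replicates stood between -0.036 and 0.018 on the same axis. Replicates 1 and 2 of 3 h were thus short of the 4 h mean and replicates 3 and 4 at or past it. Of the annotated genes that rose, 1638 were highest at 3 h in replicate 4 and 1912 lowest in replicate 2, and of those that fell, 1196 were highest in replicate 2. What sets the replicates apart was not tested, and the values of each replicate are given below, always in the order of replicates 1 to 4.

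Between 2 and 3 h, the level of 43.3% of the genes tested changed at least 2-fold. Of 11065 genes, 2566 rose (23.2% of those tested) and 2229 fell (20.1%), by edgeR's quasi-likelihood test, where a call needed both a change of 2-fold or more and an adjusted p below 0.05. These are the calls behind "rose" and "fell" throughout, and the share of a gene list that was called is to be read against these 2 percentages. The rises were the larger changes, with a median log2 fold change of 2.26 against -1.73 for the falls. A log2 fold change of 3 or more was reached by 678 rises and 241 falls. All 4 samples of 3 h lay beyond all 4 of 2 h for 2230 of the 2514 annotated rises and 1871 of the 2191 falls, beside 50.8% of all annotated genes tested. A further 2402 genes had an adjusted p under 0.05 with a change below 2-fold.

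The balance of rises and falls depended on the scaling of the libraries. The median log2 fold change of all genes tested was -0.11 with TMM factors, and the other scalings and filters placed it between 0.05 and 0.15. Rises made up 53.5% of the calls with TMM factors, 64.1% with library sizes taken without the mitochondrial genes and 68.1% without the filter on low counts. Besides the fit described, 14 alternative fits were made, 6 with another scaling, filter, tool, block or set of samples and 8 with 1 of the libraries left out. With 1 library left out in turn, 2514 to 2758 genes rose and 1731 to 2555 fell. When 3 h replicate 4 was left out, the number of falls was 1731, and without 3 h replicate 2 it was 2555.

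**Figure D1:**
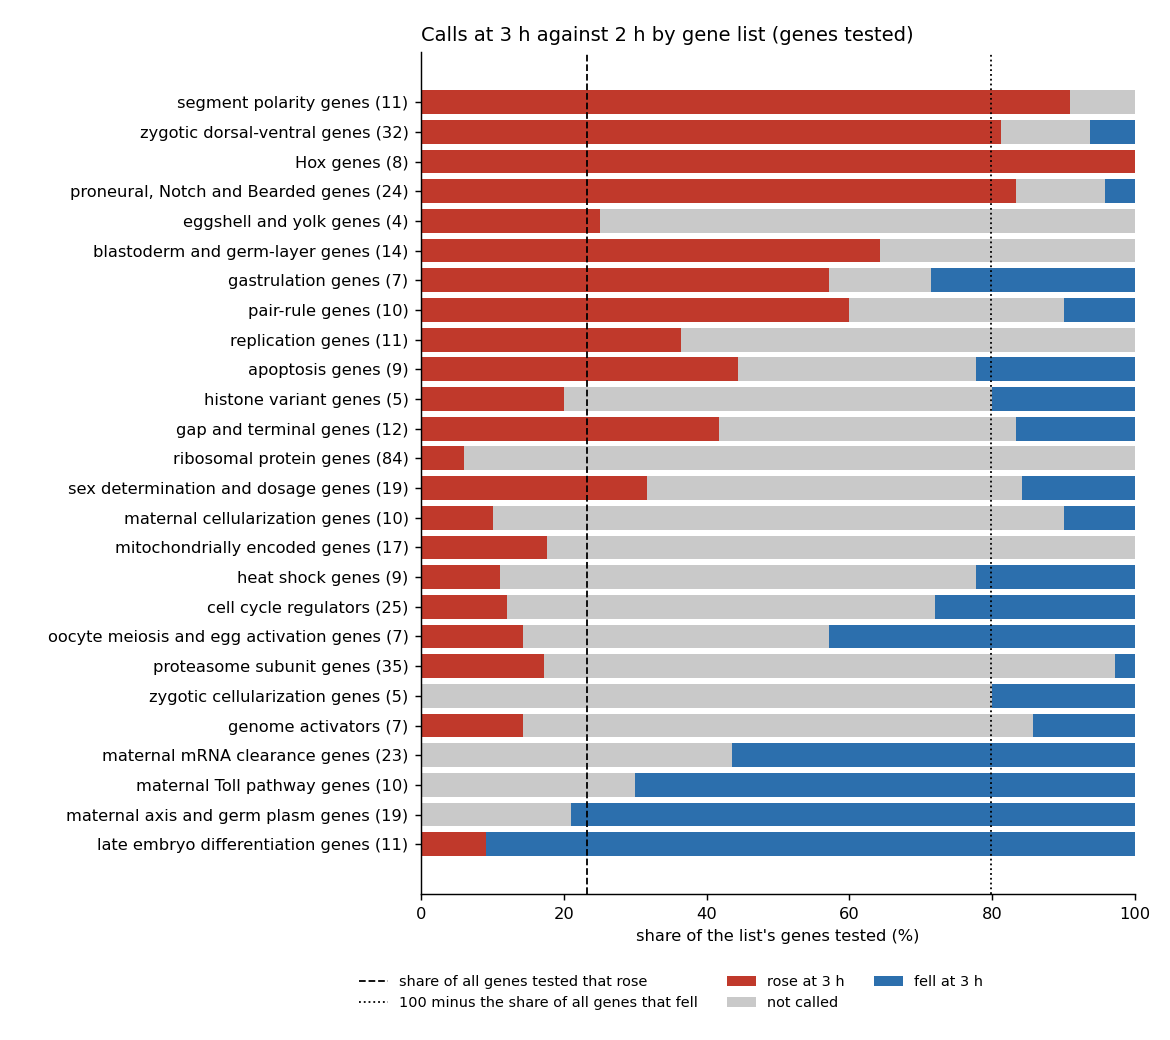
Calls at 3 h against 2 h in 26 gene lists, ordered by their median log2 fold change. Bars give the share of each list's tested genes (number in brackets) that rose, were not called or fell, the dashed line the 23.2% of all genes tested that rose, and the dotted line the limit beyond which a fall share exceeds the 20.1% of all genes; segment polarity, dorsal-ventral and Hox genes stand at the top, and maternal and late-embryo genes at the bottom.

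The 12 largest rises had log2 fold changes of 4.48 to 5.41. They were taken from genes that averaged 100 counts or more and did not overlap between the times. *Toll-6* (FBgn0036494, 3L from 15336692 to 15344315, positions here and below in BDGP6), a Toll-family receptor known for its role in germ-band extension, had 22.4, 10.9, 53.97 and 58.96 RPKM in the 3 h embryos, against 0.514, 1.28, 0.631 and 1.58 RPKM in the 2 h embryos (log2 fold change 4.96, SE 0.53, edgeR adjusted p = 2.38e-11). *robo2* (FBgn0002543, 2L from 1380086 to 1420453), a receptor for the guidance molecule Slit, had 69.5, 44.03, 124 and 133 RPKM at 3 h and 2.91, 3.46, 2.32 and 4.04 RPKM at 2 h (log2 fold change 4.66, SE 0.49, edgeR adjusted p = 2.05e-11). In both genes every 3 h sample lay above every 2 h sample, and replicates 3 and 4 of 3 h were the highest. Other annotated genes cover 20.00% of the exon bases of *robo2* on its strand and 22.9% on the opposite strand, and reads there may have been left out.

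*Gyc32E* (FBgn0010197, 2L from 11138759 to 11149101), a receptor guanylate cyclase, had 25.4, 32.4, 41.1 and 64.6 RPKM at 3 h, against 0.309, 2.18, 0.829 and 1.10 RPKM at 2 h (log2 fold change 5.02, SE 0.66, edgeR adjusted p = 7.53e-09). *Srr* (FBgn0037684, 3R from 9365398 to 9367763), which encodes serine racemase, had 6.02, 3.22, 27.2 and 24.7 RPKM at 3 h and 0.138, 0.599, 0.269 and 0.287 RPKM at 2 h (log2 fold change 5.31, SE 0.48, edgeR adjusted p = 2.29e-13). Both were below 1 RPKM at 1 h, with means of 0.684 and 0.153 RPKM. The 12 largest rises also included *CG34025*, *Fs* (a follistatin), *cn* (a kynurenine monooxygenase), *Esp*, *gsb*, *tin* and a pair of *E(spl)* genes. Antisense genes cover 68.7% of the exon bases of *cn* and 30.05% of those of *Fs*, and whether strand was used in counting is not given in the sources used here.

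The rises were mostly of RNAs that were low in the egg, as judged from the 1 h samples. Their values are not part of the fold change, but all 56 samples entered the fit and share its filter on low counts and its estimate of the spread. Of the 3694 genes with a mean below 0.5 RPKM at 1 h, 1354 rose (36.7%) and 406 fell (10.99%). Of the 2022 genes with 50 RPKM or more, 72 rose (3.56%) and 540 fell (26.7%). The classes between them stood in order, with 31.8% rising from 0.5 to 5 RPKM and 17.6% from 5 to 50 RPKM. The share that fell did not follow the same order: it was 27.04% and 23.3% in these 2 classes. With a limit of 1 in place of 0.5 RPKM, 1513 of 4159 genes in the lowest class rose. A gene near the floor has little room to fall, and may have passed the filter only through samples in which it was higher. Part of the order of the rises may thus be built in.

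**Figure D2:**
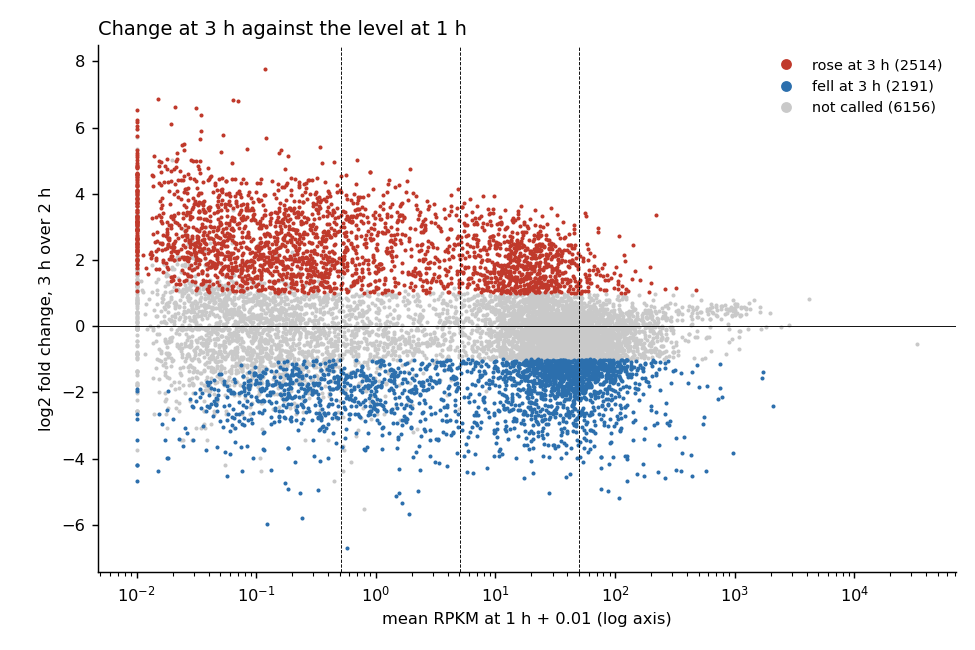
Log2 fold change at 3 h over 2 h against the mean RPKM at 1 h plus 0.01 (log axis) for the 10861 annotated genes tested, 1 point per gene. Red points rose (2514), blue points fell (2191), grey points were not called, and dashed lines mark 0.5, 5 and 50 RPKM; above 50 RPKM red points are few.

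Among the genes that pattern the anterior-posterior axis, those of the later tiers rose most often. Of 12 gap and terminal genes, which divide the embryo into broad domains, 5 rose and 2 fell. Of 10 pair-rule genes, which set up a pattern with a period of a pair of segments, 6 rose and 1 fell. Of 11 segment polarity genes, which pattern each segment, 10 rose and 0 fell, and all 8 Hox genes, which give segments their identity, rose. The median log2 fold changes of the 4 lists were 0.63, 1.41, 3.84 and 2.98, beside -0.11 over all genes tested.

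*en*, the homeobox gene that marks the posterior compartment of each segment, had 12.9, 5.87, 33.3 and 29.7 RPKM at 3 h, against 0.575, 0.740, 1.14 and 1.03 RPKM at 2 h (log2 fold change 4.33, SE 0.35, edgeR adjusted p = 1.13e-14). *hh*, the secreted signal made by the same cells, had 6.62, 3.88, 17.6 and 18.3 RPKM at 3 h and 0.301, 0.509, 0.367 and 0.791 RPKM at 2 h (log2 fold change 4.33, SE 0.39, edgeR adjusted p = 2.85e-13). *ci*, the transcription factor that reads the Hedgehog signal, had 107, 57.2, 203 and 207 RPKM at 3 h and 6.48, 7.10, 8.05 and 8.12 RPKM at 2 h (log2 fold change 4.07, SE 0.35, edgeR adjusted p = 5.86e-14). In each of the 3 the groups did not overlap, and replicates 3 and 4 of 3 h were the highest and replicate 2 the lowest of 3 h. *gsb*, a paired-box gene, had 22.5, 12.1, 57.7 and 57.4 RPKM at 3 h, against 0.613, 1.53, 1.27 and 2.04 RPKM at 2 h (log2 fold change 4.55, SE 0.41, edgeR adjusted p = 2.28e-13). The member not called was *H15*, at 0.186 ± 0.0982 RPKM at 3 h and 0.123 ± 0.0201 RPKM at 2 h (mean ± SD, n = 4 each). No value is given for *wg*, whose symbol was not matched to a gene ID of the files.

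Among the Hox genes, *Antp* had 7.22, 2.52, 15.5 and 16.4 RPKM at 3 h and 0.815, 0.614, 0.423 and 0.818 RPKM at 2 h (log2 fold change 3.74, SE 0.41, edgeR adjusted p = 5.10e-11). *Dfd*, which acts in the head, had 8.83, 4.47, 15.6 and 13.8 RPKM at 3 h and 0.651, 0.650, 1.35 and 0.925 RPKM at 2 h (log2 fold change 3.38, SE 0.28, edgeR adjusted p = 2.00e-14). *Abd-B*, which acts at the posterior end, had 2.36, 1.39, 4.71 and 4.98 RPKM at 3 h and 0.343, 0.404, 0.231 and 0.308 RPKM at 2 h (log2 fold change 3.18, SE 0.35, edgeR adjusted p = 5.24e-11). The 3 genes were below 2 RPKM in every 2 h sample and did not overlap with 3 h. The 8 Hox genes ranged in log2 fold change from 2.32 to 3.74. Another gene covers 50.1% of the exon bases of *Antp* on its strand, so that its count may be too low.

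The pair-rule genes differed among themselves. *slp2*, a late-acting forkhead gene, had 21.6, 12.6, 39.7 and 41.2 RPKM at 3 h, against 1.39, 1.74, 2.97 and 3.03 RPKM at 2 h (log2 fold change 3.45, SE 0.31, edgeR adjusted p = 2.22e-13). *opa*, a zinc-finger gene known to time the late pair-rule pattern, had 45.95, 31.2, 51.3 and 37.2 RPKM at 3 h and 4.08, 2.79, 8.07 and 3.51 RPKM at 2 h (log2 fold change 3.01, SE 0.31, edgeR adjusted p = 8.94e-12). *odd*, a zinc-finger repressor, had 65.9, 63.9, 50.3 and 43.2 RPKM at 3 h and 10.8, 9.62, 22.3 and 14.8 RPKM at 2 h (log2 fold change 1.83, SE 0.28, edgeR adjusted p = 1.67e-07). All 3 were higher in every 3 h sample, and *odd*, unlike *slp2*, was not highest in replicates 3 and 4.

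*eve* had 36.4, 36.9, 13.3 and 7.46 RPKM at 3 h, against 11.2, 12.01, 23.8 and 14.5 RPKM at 2 h, and was not called (log2 fold change 0.53, SE 0.37, edgeR adjusted p = 0.201). *ftz* had 79.4, 76.3, 49.6 and 31.9 RPKM at 3 h and 21.7, 22.7, 47.1 and 27.2 RPKM at 2 h, with a change below 2-fold (log2 fold change 0.89, SE 0.40, edgeR adjusted p = 0.0475). In both, replicates 1 and 2 of 3 h lay above all 2 h samples, while replicates 3 and 4 of 3 h were lower, and in *eve* replicate 4 lay below all 2 h samples. *run*, at a log2 fold change of 0.90, was also not called. Both *ftz* and *run* passed the 2-fold limit in part of the 14 alternative fits, in 8 and 7 of them. The member that fell was *ftz-f1*, a maternally supplied nuclear receptor and partner of *ftz*, with 3.57 ± 2.71 RPKM at 3 h and 26.4 ± 1.28 RPKM at 2 h (log2 fold change -2.96, SE 0.55, edgeR adjusted p = 9.55e-06).

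Of the gap and terminal genes, *knrl* had 12.9, 7.92, 14.1 and 13.9 RPKM at 3 h and 1.14, 1.13, 1.48 and 1.34 RPKM at 2 h (log2 fold change 3.09, SE 0.28, edgeR adjusted p = 3.25e-13). *ems*, a head gap gene, had 15.1, 13.3, 12.5 and 12.8 RPKM at 3 h and 2.37, 2.32, 5.90 and 3.96 RPKM at 2 h (log2 fold change 1.74, SE 0.26, edgeR adjusted p = 1.37e-07). These 2 were higher in all 3 h samples than in any 2 h sample, unlike the 2 genes that follow. *tll*, the terminal gene, had 57.5, 55.7, 14.9 and 14.9 RPKM at 3 h, against 25.6, 26.3, 42.4 and 34.2 RPKM at 2 h (log2 fold change 0.07, SE 0.40, edgeR adjusted p = 0.883). *gt* had 81.1, 84.8, 32.6 and 27.9 RPKM at 3 h and 37.6, 37.01, 70.5 and 47.00 RPKM at 2 h (log2 fold change 0.15, SE 0.32, edgeR adjusted p = 0.702). For both, replicates 1 and 2 of 3 h were above all 2 h samples and replicates 3 and 4 were below all of them, so that the spread within 3 h was wider than the difference between the means of the times. *hb*, *kni* and *hkb* were likewise not called, with log2 fold changes of -0.88, 0.58 and 0.67.

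*cad*, whose maternal RNA is translated toward the posterior pole, fell to 20.7, 33.7, 8.20 and 5.54 RPKM at 3 h, against 65.04, 69.8, 73.96 and 70.3 RPKM at 2 h (log2 fold change -2.10, SE 0.27, edgeR adjusted p = 2.48e-09). The other member that fell was *cnc*, a basic leucine zipper factor of the head, with 5.05 ± 1.17 RPKM at 3 h and 17.4 ± 2.53 RPKM at 2 h (log2 fold change -1.95, SE 0.14, edgeR adjusted p = 2.01e-16). Both were already present at 1 h, with 109 and 40.4 RPKM.

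**Figure D3:**
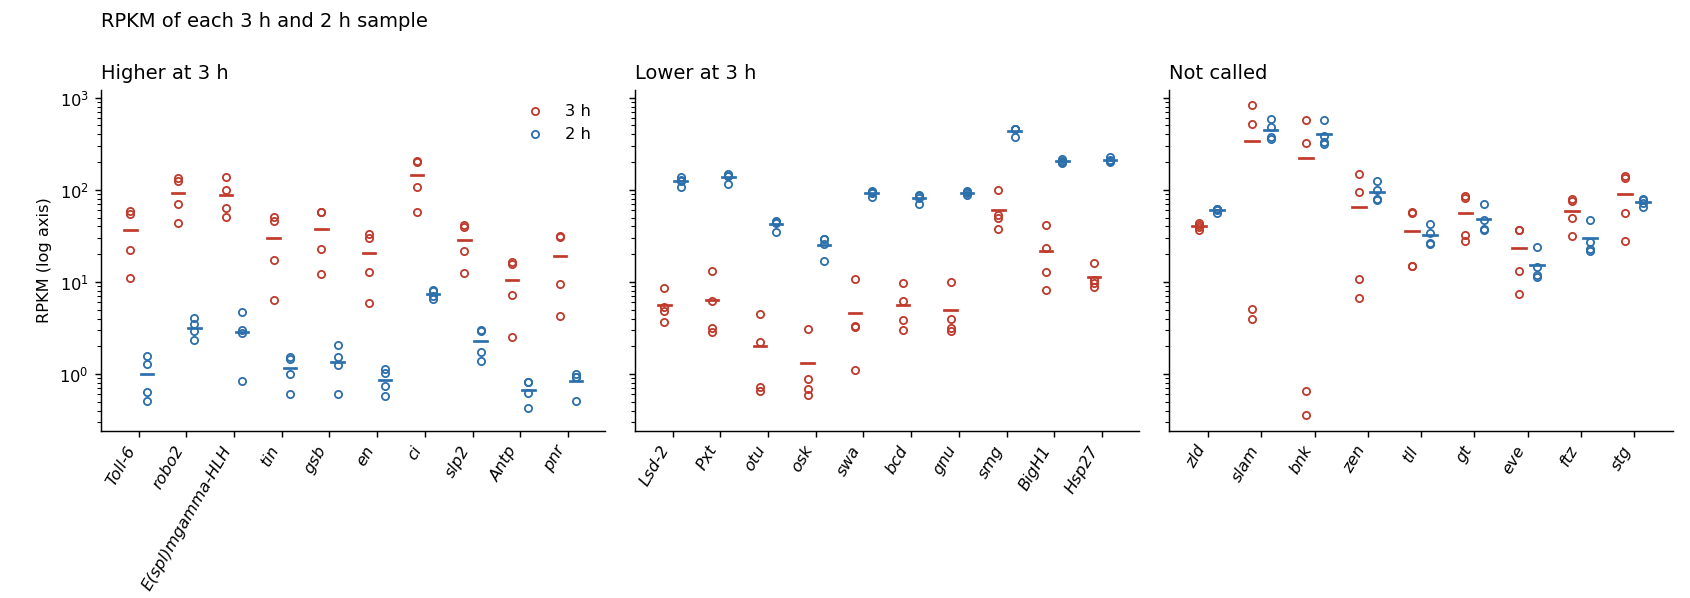
RPKM (log axis) of single samples for 10 genes that were higher at 3 h, 10 that were lower and 9 that were not called, 3 h in red on the left and 2 h in blue on the right of each gene. Circles are samples and bars the mean of 4; in the first 2 panels the groups do not overlap, while in the third the 3 h samples of *slam* and *bnk* spread from below 6 to above 300 RPKM.

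Genes that pattern the dorsal-ventral axis rose in 26 of 32 cases, with a median log2 fold change of 3.11. They covered the dorsal ectoderm, the neuroectoderm and the mesoderm. *pnr*, a GATA factor of the dorsal ectoderm, had 9.55, 4.29, 31.7 and 30.4 RPKM at 3 h and 0.504, 0.922, 0.931 and 0.998 RPKM at 2 h (log2 fold change 4.27, SE 0.41, edgeR adjusted p = 1.77e-12). *ind*, a homeobox gene of the intermediate neuroectoderm, had 19.5, 6.93, 39.7 and 38.7 RPKM at 3 h and 1.32, 0.663, 1.70 and 1.32 RPKM at 2 h (log2 fold change 4.17, SE 0.41, edgeR adjusted p = 2.75e-12). *tin*, a homeobox gene of the mesoderm required for the heart, had 17.5, 6.32, 51.3 and 45.6 RPKM at 3 h and 0.607, 1.00, 1.53 and 1.46 RPKM at 2 h (log2 fold change 4.48, SE 0.40, edgeR adjusted p = 1.50e-13). *ths*, an FGF ligand that guides the spreading mesoderm, had 9.74, 3.00, 22.5 and 21.9 RPKM at 3 h, against 0.744, 0.691, 0.496 and 0.874 RPKM at 2 h (log2 fold change 4.12, SE 0.47, edgeR adjusted p = 2.11e-10). The 3 h samples were above the 2 h samples in all 4, with replicate 2 the lowest of 3 h each time.

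The other 6 members tested fell or were not called. *scw*, a BMP ligand of the early dorsal side, fell to 41.03, 74.3, 0.672 and 0.463 RPKM at 3 h, against 122, 130.2, 75.1 and 118 RPKM at 2 h (log2 fold change -1.96, SE 0.77, edgeR adjusted p = 0.0260). *zen*, a homeobox gene of the dorsal-most cells, had 93.9, 149.5, 10.7 and 6.73 RPKM at 3 h and 78.98, 78.3, 125 and 100.4 RPKM at 2 h and was not called (log2 fold change -0.59, SE 0.55, edgeR adjusted p = 0.348). In both, replicates 1 and 2 of 3 h were far above replicates 3 and 4. The call of *scw* was lost in 5 of the 14 alternative fits, among them DESeq2, the fit of the 8 samples alone and the one without 3 h replicate 3, with log2 fold changes of -1.79 to -1.53. *zen2* also fell (log2 fold change -1.42), and *tld*, *tsg* and *Mef2* were not called (4 members fell without 3 h replicate 2), with log2 fold changes of 0.50, -0.91 and 0.59.

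Genes of the Notch pathway and of the neural precursors rose in 20 of 24 cases, and 1 fell, with a median log2 fold change of 2.74. *E(spl)mgamma-HLH*, a basic helix-loop-helix repressor that responds to Notch, had 63.3, 50.4, 98.8 and 139 RPKM at 3 h and 0.848, 4.73, 2.80 and 3.02 RPKM at 2 h (log2 fold change 4.74, SE 0.44, edgeR adjusted p = 4.94e-13). The other *E(spl)* genes of the list rose as well, from 1.53 for *E(spl)m6-BFM* to 4.66 for *E(spl)mdelta-HLH* on the log2 scale. Not called were the proneural genes *ac* and *l(1)sc* and the receptor *N*, with log2 fold changes of 0.94, 0.80 and 0.62, although *ac* and *l(1)sc* were called as rises in 10 and 4 of the 14 alternative fits. *sc*, which is both a proneural gene and an X-signal element of sex determination, fell to 10.9, 8.46, 16.8 and 17.95 RPKM at 3 h, against 55.5, 58.6, 56.6 and 48.6 RPKM at 2 h (log2 fold change -2.20, SE 0.42, edgeR adjusted p = 1.47e-05).

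Of 7 genes known from apical constriction and germ-band extension, 4 rose and 2 fell. *Traf4*, an adaptor that shapes adherens junctions in the mesoderm, had 74.9, 47.7, 133 and 132 RPKM at 3 h and 4.97, 6.32, 9.66 and 6.94 RPKM at 2 h (log2 fold change 3.60, SE 0.33, edgeR adjusted p = 4.93e-13). *Tollo* and *mthl1* rose with log2 fold changes of 3.07 and 1.43, next to *Toll-6*. The members that fell, *fog* (-1.36), the ligand of apical constriction, and *cta* (-1.30), a G protein that acts downstream of it, had 21.4 and 38.96 RPKM at 1 h. The call of *cta* was lost in 2 of the 14 alternative fits. *T48* was not called at 0.82.

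Of 14 other blastoderm transcripts and regulators of the germ layers, 9 rose and 0 fell (2 without 3 h replicate 2). *pdm2*, a POU factor, had 15.1, 8.45, 30.7 and 33.2 RPKM at 3 h and 0.617, 0.807, 1.25 and 0.858 RPKM at 2 h (log2 fold change 4.42, SE 0.35, edgeR adjusted p = 5.41e-15). *srp*, a GATA factor of blood cells, fat body and endoderm, had 25.5, 14.97, 38.6 and 35.8 RPKM at 3 h and 2.11, 2.02, 2.79 and 2.78 RPKM at 2 h (log2 fold change 3.38, SE 0.21, edgeR adjusted p = 1.37e-18). *Blimp-1*, a zinc-finger repressor, had 5.89, 3.26, 5.13 and 3.83 RPKM at 3 h and 0.386, 0.292, 0.610 and 0.345 RPKM at 2 h (log2 fold change 3.32, SE 0.57, edgeR adjusted p = 1.97e-06). None of the 3 overlapped between the times. The 5 members not called, *Elba1*, *Nin*, *term*, *Z600* and *D*, had 2 h means of 42.4 to 342 RPKM, all above those of *pdm2*, *srp* and *Blimp-1*. *D* was called as a rise in 8 of the 14 alternative fits and *Z600* in 1.

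The sex determination switch *Sxl* rose to similar levels in all 3 h replicates. It had 88.4, 66.8, 71.8 and 69.8 RPKM in the 3 h embryos, against 11.4, 11.4, 17.8 and 18.9 RPKM in the 2 h embryos (log2 fold change 2.17, SE 0.17, edgeR adjusted p = 1.19e-15). *Sxl* RNA was already present at 1 h, at 14.3 ± 2.28 RPKM at 1 h. *msl-2*, the male-specific subunit of the dosage compensation complex, had 33.9, 35.2, 25.9 and 23.1 RPKM at 3 h and 6.23, 6.01, 10.7 and 9.02 RPKM at 2 h (log2 fold change 1.76, SE 0.24, edgeR adjusted p = 1.51e-08). Unlike *en* and *tin*, neither was highest in replicates 3 and 4. Of the 19 genes of this list, 6 rose and 3 fell, among them *emc* (1.80) and the noncoding RNA *roX1* (1.20) upward, and *msl-1* (-1.69) and *mof* (-1.46) downward. The X-signal elements *sisA* (1.00), *run* (0.90) and *upd1* (0.49) were not called, with *sisA* called in 5 of the 14 alternative fits.

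The zygotic cellularization genes showed the spread within 3 h most clearly. *slam*, which is needed for the growth of the cleavage furrow, had 518, 830.1, 5.02 and 3.98 RPKM at 3 h, against 375, 357, 581 and 487 RPKM at 2 h (log2 fold change -0.43, SE 0.69, edgeR adjusted p = 0.597). *bnk*, which restrains the closing of the furrow base, had 322, 570.0, 0.656 and 0.358 RPKM at 3 h and 318, 327, 580.2 and 380.4 RPKM at 2 h (log2 fold change -0.87, SE 0.84, edgeR adjusted p = 0.370). *nullo*, which stabilises the new furrow, had 19.1, 27.6, 0.199 and 0.435 RPKM at 3 h and 117, 117, 136 and 99.6 RPKM at 2 h (log2 fold change -3.34, SE 0.77, edgeR adjusted p = 2.55e-04). Replicates 1 and 2 of 3 h lay within or above the range of the 2 h samples in *slam* and *bnk*, while replicates 3 and 4 were below 6 RPKM, and only *nullo* of the 5 members tested was called. *halo* and *dunk* had log2 fold changes of 0.44 and -0.60. *Sry-alpha* was listed at or near 0 and did not enter the test. Exons of another gene cover 100% of its exon bases, and reads over 2 genes may have been left out. The count thus does not show that its RNA was absent. Whether the overlap lowered its count was not tested.

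With 3 h replicate 3 or 4 left out, *slam* had a log2 fold change of 0.00 or 0.01. At 4 h the mean levels of *slam*, *bnk* and *nullo* were 14.5 ± 2.93, 2.09 ± 0.337 and 0.635 ± 0.249 RPKM, and at 1 h 84.6 ± 13.3, 14.6 ± 11.3 and 5.89 ± 4.90 RPKM (n = 4 each). The 3 transcripts were thus lower at 1 h and at 4 h than at 2 h.

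In 7 of 10 maternally supplied cytoskeletal genes of cellularization the samples of the times did not overlap, beside 50.8% of all annotated genes tested. Of the 10 genes, 8 were not called. Of the other 2, 1 rose and *nuf*, which acts in membrane trafficking to the furrow, fell to 23.9 ± 2.97 RPKM at 3 h, against 50.7 ± 0.767 RPKM at 2 h (log2 fold change -1.22, SE 0.10, edgeR adjusted p = 1.25e-14). The call of *nuf* was lost, with log2 fold changes of -0.99 and -0.97, without the filter on low counts and with library sizes without mitochondrial genes.

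**Figure D4:**
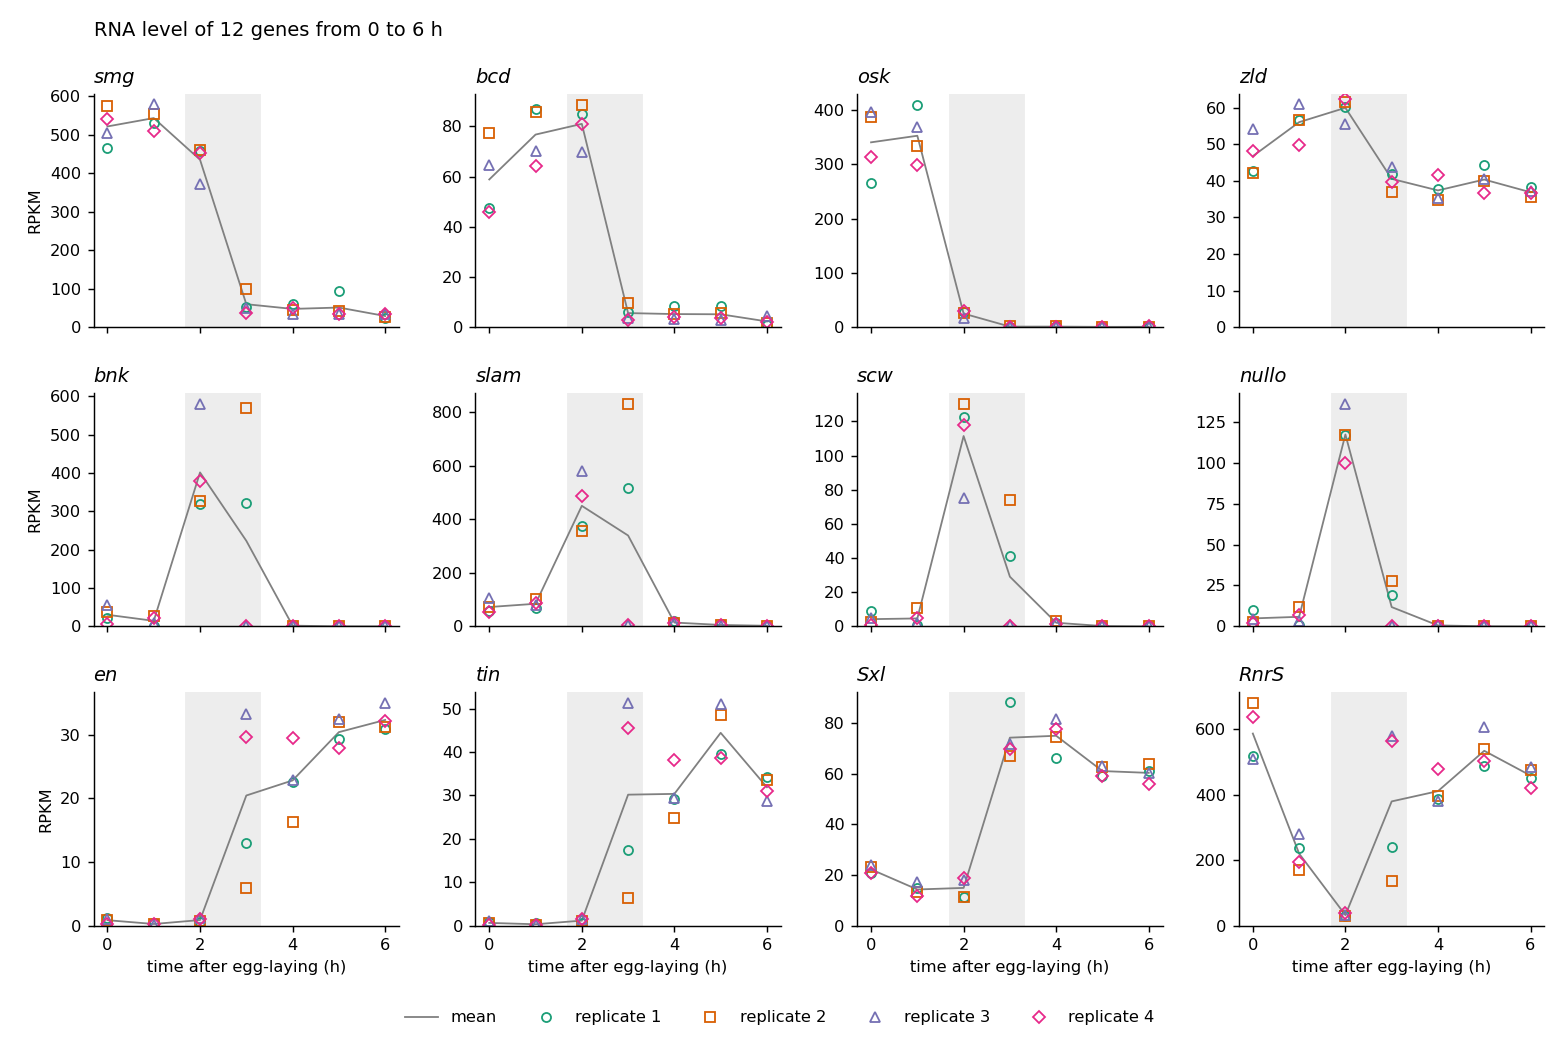
RPKM of 12 genes from 0 to 6 h after egg-laying, with 1 symbol per replicate and a line through the means of 4 samples. The shaded band holds 2 and 3 h; *smg*, *bcd* and *osk* are low from 3 h on, *bnk*, *slam*, *scw* and *nullo* are high at 2 h and higher in replicates 1 and 2 than in replicates 3 and 4 of 3 h, and *en*, *tin*, *Sxl* and *RnrS* are higher at 3 h than at 2 h.

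The largest falls named here were mostly of RNAs that were abundant in the egg. They were taken from genes that averaged 100 counts or more and did not overlap between the times. A gene with so large a fall passes this limit only with high counts at 2 h. Part of this abundance may thus be built in. *Lsd-2* (FBgn0030608, X from 15069127 to 15076220), a perilipin of lipid droplets, fell to 5.32, 8.69, 3.65 and 4.80 RPKM in the 3 h embryos, against 126, 136, 108 and 129 RPKM in the 2 h embryos (log2 fold change -4.59, SE 0.23, edgeR adjusted p = 1.76e-21). *Pxt* (FBgn0261987, 3R from 17719454 to 17722955), a cyclooxygenase-like peroxidase of the ovary, had 6.28, 13.05, 3.17 and 2.82 RPKM at 3 h and 142, 149, 116 and 141 RPKM at 2 h (log2 fold change -4.52, SE 0.40, edgeR adjusted p = 8.77e-14). *otu* (FBgn0003023, X from 8485008 to 8489535), a deubiquitinase required in oogenesis, had 2.22, 4.47, 0.657 and 0.717 RPKM at 3 h and 43.7, 45.9, 34.9 and 44.8 RPKM at 2 h (log2 fold change -4.48, SE 0.41, edgeR adjusted p = 2.64e-13). The 3 genes had 262, 444 and 154 RPKM at 1 h, and at 3 h replicate 2 was the highest in each.

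*CG9917* (FBgn0030740, X from 16321431 to 16323231) had 2.18, 4.33, 1.90 and 1.40 RPKM at 3 h and 57.6, 63.9, 52.1 and 57.9 RPKM at 2 h (log2 fold change -4.68, SE 0.25, edgeR adjusted p = 1.00e-20). *olf186-M* (FBgn0015522, 2R from 17846699 to 17848444) had 1.09, 1.63, 0.386 and 0.281 RPKM at 3 h and 22.6, 26.9, 22.9 and 25.1 RPKM at 2 h (log2 fold change -4.97, SE 0.37, edgeR adjusted p = 6.56e-16). These were likewise down in every 3 h sample and had been higher at 1 h, at 127 and 87.03 RPKM. *CG18269* (FBgn0031719, 2L from 5551838 to 5552756) differed in its course, with 8.21, 14.4, 0.183 and 0 RPKM at 3 h and 119, 128, 128 and 108 RPKM at 2 h (log2 fold change -4.45, SE 0.80, edgeR adjusted p = 6.21e-06). At 1 h it had 6.43 ± 5.10 RPKM, so that its level was higher at 2 h than at 1 h, unlike that of the other 11 of the 12 largest falls. The other 6 of the 12 largest falls, *superdeath*, *CG7208*, *CG14440*, *CG30377*, *Ggt-1* and *Prestin*, had log2 fold changes of -5.19 to -4.47.

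RNAs of the maternal axis determinants and the germ plasm fell in 15 of 19 cases and rose in 0, with a median log2 fold change of -1.91. *bcd*, the anterior determinant, fell to 6.21, 9.67, 3.81 and 2.97 RPKM at 3 h, against 84.8, 88.7, 69.7 and 80.9 RPKM at 2 h (log2 fold change -3.94, SE 0.46, edgeR adjusted p = 3.01e-10), and was thus still at its 1 h level (76.8 ± 11.3 RPKM) at 2 h. *osk*, which assembles the germ plasm, had 0.891, 3.04, 0.686 and 0.598 RPKM at 3 h and 28.9, 26.1, 16.8 and 29.3 RPKM at 2 h (log2 fold change -4.39, SE 0.46, edgeR adjusted p = 1.67e-11), and most of its loss came earlier, since its 1 h mean was 353 RPKM. Exons of another gene cover 78.5% of the exon bases of *osk* on its strand. *swa*, which is needed to localise *bcd* RNA, had 3.29, 10.8, 3.22 and 1.09 RPKM at 3 h and 93.6, 98.2, 83.6 and 92.2 RPKM at 2 h (log2 fold change -4.40, SE 0.52, edgeR adjusted p = 5.29e-10).

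*bru1*, the translational repressor Bruno, had 1.49, 1.75, 0.974 and 1.11 RPKM at 3 h, against 19.9, 21.1, 13.9 and 23.4 RPKM at 2 h (log2 fold change -4.01, SE 0.21, edgeR adjusted p = 1.53e-20). *nanos*, the posterior determinant, had 22.8, 14.8, 9.91 and 9.35 RPKM at 3 h and 40.4, 42.5, 32.7 and 45.5 RPKM at 2 h (log2 fold change -1.62, SE 0.22, edgeR adjusted p = 1.28e-08). Its fall was smaller than those of *bcd* and *osk*, and it kept 11.1 RPKM at 4 h. Not called were *tud* (0.97, called as a rise in 11 of the 14 alternative fits), *aub* (-0.90), *stau* (-0.46) and *trk* (-0.89). *BicC* and *cup* were listed at or near 0 and did not enter the test. Exons of other genes cover 94.8% and 100% of their exon bases, and reads over 2 genes may have been left out. The counts thus do not show that these RNAs were absent. Whether the overlap lowered their counts was not tested.

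Of the 10 maternal genes of the Toll pathway, which sets up the dorsal-ventral axis, 7 fell and 0 rose. *spz*, the ligand of Toll, had 2.31, 2.71, 2.31 and 1.87 RPKM at 3 h and 22.5, 21.96, 13.6 and 20.7 RPKM at 2 h (log2 fold change -3.24, SE 0.24, edgeR adjusted p = 4.18e-16). *dl*, the NF-kappaB factor at the end of the pathway, had 0.259, 0.442, 0.210 and 0.191 RPKM at 3 h and 2.89, 2.76, 2.03 and 2.96 RPKM at 2 h (log2 fold change -3.41, SE 0.39, edgeR adjusted p = 2.02e-10), after 20.7 ± 2.01 RPKM at 1 h. The RNAs of these genes were therefore low at 3 h, and that of *dl* was already low at 2 h. The receptor *Tl* (-0.88), the inhibitor *cact* (-0.75) and the serpin *Spn27A* (-0.55) were not called.

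Of 23 genes that act in the clearance or the translational control of maternal mRNA, 13 fell and 0 rose. *smg*, the gene of Smaug, had 53.4, 99.98, 49.7 and 37.2 RPKM in the 3 h embryos, against 457, 460.1, 372 and 453 RPKM in the 2 h embryos (log2 fold change -2.96, SE 0.33, edgeR adjusted p = 1.09e-10). *gnu*, an activating subunit of the PNG kinase, had 3.99, 9.96, 3.17 and 2.92 RPKM at 3 h and 87.7, 97.8, 92.04 and 94.99 RPKM at 2 h (log2 fold change -4.33, SE 0.32, edgeR adjusted p = 3.30e-16). *wisp*, a cytoplasmic poly(A) polymerase, had 19.8, 26.1, 6.00 and 3.76 RPKM at 3 h and 159.9, 170.4, 139.7 and 163 RPKM at 2 h (log2 fold change -3.58, SE 0.43, edgeR adjusted p = 6.86e-10). *Marf1*, which recruits the CCR4-NOT complex, had 38.9, 66.97, 7.62 and 5.04 RPKM at 3 h and 212, 227, 183 and 216 RPKM at 2 h (log2 fold change -2.87, SE 0.48, edgeR adjusted p = 1.41e-06). All 3 h samples were below all 2 h samples in these 4, and replicate 2 was the highest of 3 h in each.

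Within the deadenylase and decapping genes the falls were smaller or absent. *Not1* fell (-1.37), and *Pop2* fell by just over 2-fold (-1.03), a call lost in 11 of the 14 alternative fits. *twin* had a log2 fold change of -0.83 and *Not3* of 0.42. The translational repressors *me31B* and *tral* fell (-1.38 and -1.86), and *pum* fell (-2.18), while *brat* (0.46), *pAbp* (-0.40) and *DCP2* (0.00) were not called.

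RNAs of oocyte meiosis and egg activation fell in 3 of 7 cases and rose in 1, with a median log2 fold change of -0.22. Single members ranged from -3.84 to 1.63. *cort* was not called, but was called as a rise in 9 of the 14 alternative fits (log2 fold change 1.05 to 1.24). *mtrm*, an inhibitor of Polo kinase in the oocyte, had 2.12, 6.05, 3.35 and 2.02 RPKM at 3 h and 44.8, 49.2, 33.4 and 50.1 RPKM at 2 h (log2 fold change -3.84, SE 0.33, edgeR adjusted p = 4.29e-14), after 359 ± 39.5 RPKM at 1 h. *BigH1*, the linker histone of the early embryo, had 23.2, 41.7, 12.7 and 8.15 RPKM at 3 h and 199, 215, 206 and 196 RPKM at 2 h (log2 fold change -3.33, SE 0.46, edgeR adjusted p = 1.90e-08). The other histone variants went the other way or were not called, with *cid*, the centromeric histone, at 15.7, 8.73, 34.00 and 30.9 RPKM at 3 h, against 3.63, 4.02, 4.46 and 4.02 RPKM at 2 h (log2 fold change 2.26, SE 0.26, edgeR adjusted p = 2.79e-10), and *His2Av*, *His3.3A* and *His3.3B* not called (0.38, 0.81 and 0.66). *Hsp27*, a small heat shock protein stored in the egg, had 10.4, 15.9, 8.75 and 9.84 RPKM at 3 h and 207, 225, 199.8 and 213 RPKM at 2 h (log2 fold change -4.36, SE 0.28, edgeR adjusted p = 4.85e-18). *Hsp26* fell as well (-2.13). Of the other tested members of the heat shock list, *Hsp70Bb* was called up at means of 0.127 RPKM at 3 h and 0.0360 RPKM at 2 h, a call lost in 4 of 13 alternative fits (edgeR adjusted p = 0.0585 to 0.0971). *Hsp67Bc* was not called, but was called up in 10 of 14, and the stress-inducible *Hsp68* was not called (-0.04). The number of rises in the list was thus 0 to 3 over the alternative fits.

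Of 7 factors that activate the zygotic genome 1 rose and 1 fell, with 3 falls without 3 h replicate 2 and 0 in 9 of the alternative fits. *zld*, which encodes the pioneer factor Zelda, had 41.8, 36.8, 43.9 and 39.7 RPKM in the 3 h embryos, against 60.1, 61.6, 55.7 and 62.5 RPKM in the 2 h embryos. The groups did not overlap, but the change was below 2-fold (log2 fold change -0.72, SE 0.14, edgeR adjusted p = 2.15e-05). *nej*, the acetyltransferase CBP, had 32.5, 32.6, 25.7 and 25.8 RPKM at 3 h and 59.4, 60.6, 43.5 and 57.2 RPKM at 2 h (log2 fold change -1.06, SE 0.20, edgeR adjusted p = 1.67e-05). Its call rests on a change close to 2-fold and was lost in 9 of the 14 alternative fits, in which the log2 fold change lay between -0.81 and -0.92. *grh*, a transcription factor of the epidermis, was the 1 member that rose, with 18.1, 12.8, 16.9 and 17.5 RPKM at 3 h and 1.88, 1.76, 2.39 and 1.79 RPKM at 2 h (log2 fold change 2.90, SE 0.29, edgeR adjusted p = 6.69e-12). *Trl*, *Clamp*, *Stat92E* and *fs(1)h* were not called (-0.26, -0.85, -0.97 and -0.25).

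The cell cycle is slowed at this stage, and its regulators moved in both directions. Of 25, 3 rose and 7 fell, or 4 without the filter on low counts, in the fit of the 8 samples or with library sizes without mitochondrial genes. *twe*, a Cdc25 phosphatase supplied by the mother, fell to 39.1, 81.1, 9.43 and 7.86 RPKM at 3 h, against 131, 136, 137 and 136 RPKM at 2 h (log2 fold change -2.02, SE 0.51, edgeR adjusted p = 5.87e-04). *stg*, the zygotic Cdc25 phosphatase that is also supplied by the mother, had 55.4, 27.5, 142 and 134 RPKM at 3 h and 71.5, 77.3, 65.8 and 79.3 RPKM at 2 h and was not called (log2 fold change 0.07, SE 0.26, edgeR adjusted p = 0.835). *CycB*, a mitotic cyclin, had 363, 344, 582 and 551 RPKM at 3 h and 1242, 1256, 1149 and 1204 RPKM at 2 h (log2 fold change -1.58, SE 0.20, edgeR adjusted p = 5.13e-09). In *stg*, replicates 3 and 4 of 3 h were above and replicates 1 and 2 below the 2 h samples, and in *twe* replicates 1 and 2 were the higher ones. *trbl*, which promotes the destruction of Cdc25, and *dap*, a cyclin-dependent kinase inhibitor, rose (1.14 and 1.17). The call of *trbl* was lost without 3 h replicate 2 (log2 fold change 0.84).

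Some RNAs present at 1 h were low at 2 h and higher again at 3 h. *RnrS*, the small subunit of ribonucleotide reductase, had 241, 135, 577 and 563 RPKM at 3 h, against 29.4, 30.1, 31.4 and 37.3 RPKM at 2 h (log2 fold change 3.35, SE 0.25, edgeR adjusted p = 4.33e-16), with 219.7 ± 47.9 RPKM at 1 h. *Orc2*, a subunit of the origin recognition complex, had 16.6, 9.94, 49.7 and 53.4 RPKM at 3 h and 3.04, 2.59, 3.40 and 4.23 RPKM at 2 h (log2 fold change 3.06, SE 0.30, edgeR adjusted p = 2.47e-12), with 45.2 ± 7.18 RPKM at 1 h. *mei-41*, the checkpoint kinase ATR, had 4.20, 2.26, 8.89 and 9.86 RPKM at 3 h and 0.542, 0.516, 0.433 and 0.642 RPKM at 2 h (log2 fold change 3.35, SE 0.27, edgeR adjusted p = 1.01e-14), with 5.69 ± 1.55 RPKM at 1 h. The 2 h level was the lowest of the 3 times in each of them, and *cid* (1 h mean 35.4 RPKM) had the same course. Of the 755 annotated rises with at least 5 RPKM at 1 h, 621 had a 2 h mean below 50% of the 1 h mean. Of all 5895 annotated genes tested at that level, 1720 did (29.2%). Nothing is read from the difference, since a gene is more easily called a rise over 2 h where its 2 h value is low.

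Replication genes rose in 4 of 11 cases, with *dpa* and *Mcm2* (1.78 and 1.13) next to *RnrS* and *Orc2*. *Mcm2* overlapped between the times, with a 3 h replicate 2 at 39.9 RPKM, and was no longer called when 3 h replicate 3 was left out (log2 fold change 0.999). *PCNA*, *Mcm5*, *Mcm6*, *Mcm7*, *RnrL*, *geminin* and *dup* were not called, although *Mcm5* and *PCNA* were in 10 and 9 of the 14 alternative fits.

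Of the 9 apoptosis genes, 4 rose and 2 fell. *rpr*, an activator of cell death, had 25.9, 21.6, 38.1 and 44.2 RPKM at 3 h and 3.76, 4.14, 5.60 and 3.79 RPKM at 2 h (log2 fold change 2.72, SE 0.25, edgeR adjusted p = 6.72e-13). The activators *grim* and *skl* rose (2.88 and 1.19), and so did the caspase inhibitor *Diap1* (1.62). *Dronc*, the initiator caspase supplied by the mother, had 52.2, 89.02, 9.85 and 8.64 RPKM at 3 h, against 90.5, 92.3, 103 and 92.03 RPKM at 2 h (log2 fold change -1.29, SE 0.36, edgeR adjusted p = 0.00167). Replicate 2 of 3 h lay just below the 2 h samples, replicate 1 lower and replicates 3 and 4 far below, and the call was lost in the fit of the 8 samples (log2 fold change -1.09, edgeR adjusted p = 0.208) and without 3 h replicate 3 or 4 (log2 fold change -0.93 or -0.91). *p53* fell (log2 fold change -1.11), a call lost in 8 of the 14 alternative fits, and antisense genes cover 38.02% of its exon bases.

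The genes of the protein synthesis and degradation machinery changed less. Of 84 ribosomal protein genes 5 rose and 0 fell, although 83 had a positive log2 fold change, with a median of 0.52 (0.52 to 0.76 over the scalings). Without 2 h replicate 3, without the filter, or with library sizes without mitochondrial genes, 11 rose. *RpL38* had 749, 679.8, 698 and 931 RPKM at 3 h and 268, 293, 370.4 and 305 RPKM at 2 h (log2 fold change 1.15, SE 0.35, edgeR adjusted p = 0.00366). The other 4 that rose were copies at or below 2.86 RPKM at 3 h in the fit with all samples. Of 35 proteasome subunit genes 6 rose and 1 fell, with a median log2 fold change of -0.35 and 23 of 35 negative. The number that fell was 7 without 3 h replicate 2 and 0 to 2 in the other 13 alternative fits, and the number that rose was 12 without the filter on low counts. *Rpn11*, the deubiquitinase of the proteasome lid, had 54.2, 39.1, 105 and 107 RPKM at 3 h and 19.5, 21.1, 21.4 and 21.9 RPKM at 2 h (log2 fold change 1.66, SE 0.15, edgeR adjusted p = 2.53e-13), and was at 146 ± 18.4 RPKM at 1 h. *Prosalpha4* fell (-1.05), but the samples overlapped and the call was lost in 8 of the 14 alternative fits. Of 17 mitochondrially encoded genes 3 rose and 0 fell, and the 3 that rose, *mt:ND2*, *mt:ND4L* and *mt:ND6*, had means of 15.6 RPKM or less at 3 h. The call of *mt:ND2* was lost in 5 of the 14 alternative fits, and 1 gene of this list rose without 3 h replicate 2 or 2 h replicate 4.

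Genes of late embryonic tissues were lower at 3 h than at 2 h, and so were many of the genes with their highest level late in embryogenesis. Of the 12 markers of muscle, neurons and cuticle, 11 were tested, of which 10 fell and 1 rose. *Mhc*, the muscle myosin heavy chain, had 3.80, 3.63, 3.77 and 4.29 RPKM at 3 h, against 24.6, 15.5, 8.16 and 12.9 RPKM at 2 h (log2 fold change -2.14, SE 0.67, edgeR adjusted p = 0.00492). The summed level of the markers was 95.2 to 132 RPKM at 3 h and 200.02 to 392.3 RPKM at 2 h. It was 49.9 to 603 RPKM at 0 h, where 3 of 4 samples lay above every 2 h sample, 74.2 to 147 RPKM at 1 h and 6217 to 12299 RPKM at 20 h. *elav*, a neuronal RNA-binding protein, was the marker that rose, with 10.5, 6.92, 15.4 and 16.6 RPKM at 3 h and 1.30, 1.30, 1.04 and 1.40 RPKM at 2 h (log2 fold change 3.10, SE 0.39, edgeR adjusted p = 2.56e-09). *Ccp84Ab* was at 0 counts in all 3 h samples. Over the alternative fits 8 to 10 of the markers fell. The call was lost for *Ccp84Ab* in 6 and for *Cpr49Ae* in 3 of the 13 fits made for them, and for *Syt1* without 2 h replicate 1.

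Of the annotated falls, 733 of 2191 were of genes whose mean at 18 and 20 h was at least 10 times that at 4 h, a limit chosen after the data were seen. Among all 1956 genes of this kind that were tested, 37.5% fell and 2.10% rose. They were selected for a low level at 4 h, and the 3 h samples stood near 4 h. Part of this imbalance may thus be built in. Of the 733 falls, 443 were below 1 RPKM at 1 h, and the others were already present at 1 RPKM or more. At 2 h these 733 RNAs stood at a median of 5.05% of their level at 18 and 20 h, and at 3 h at 1.36%. Without genes of this kind, 1458 genes fell and 2473 rose. In the class below 0.5 RPKM at 1 h, 58 of the 406 falls remained, whereas from 50 RPKM on 516 of 540 did. Whether older embryos in the 2 h samples account for these values was not tested.

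The eggshell and yolk genes, markers of the adult ovary, were at or near 0. Their summed level over 14 genes was 0.759 to 1.73 RPKM at 3 h and 0.155 to 0.381 RPKM at 2 h. At 3 h 4 of them had 0 counts in every sample, against 10 at 2 h. *Yp3*, the only one called (4 were with DESeq2 and 0 in the fit of the 8 samples), rose to 0.482 ± 0.211 RPKM at 3 h, against 0.146 ± 0.0300 RPKM at 2 h (log2 fold change 1.52, SE 0.57, edgeR adjusted p = 0.0190).

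**Figure D5:**
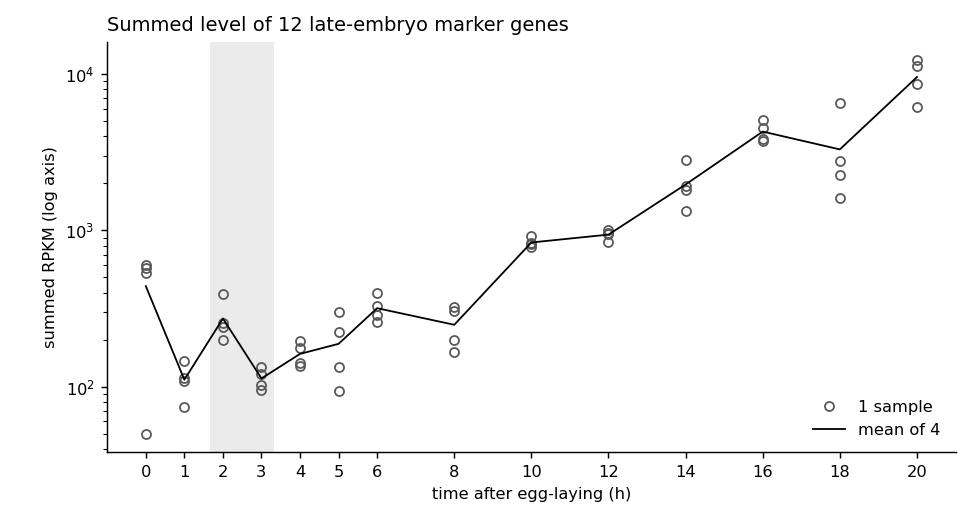
Summed RPKM (log axis) of 12 marker genes of late embryonic muscle, neurons and cuticle in each sample from 0 to 20 h after egg-laying. Circles are samples, the line joins the means of 4, and the shaded band holds 2 h (200.02 to 392.3 RPKM) and 3 h (95.2 to 132 RPKM).

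The samples of 1 h and 4 h were compared in the same fit, so that both comparisons share its filter and its estimate of the spread, but no samples. From 1 to 4 h, 3591 genes rose (32.5% of those tested) and 2074 fell (18.7%), 51.2% in all. Of the 2514 annotated genes that rose at 3 h, 1902 (75.7%) also rose from 1 to 4 h and 44 fell. Those that rose in both were 53.9% of the 3528 annotated rises from 1 to 4 h. Of the 2191 that fell at 3 h, 1422 (64.9%) also fell and 39 rose. Those that fell in both were 69.9% of the 2034 annotated falls from 1 to 4 h. All 11 segment polarity genes and all 8 Hox genes rose from 1 to 4 h, and 17 of 19 maternal axis genes fell. Of the late-embryo markers, 0 fell and 1 rose from 1 to 4 h. The gap and terminal genes, of which 5 rose from 2 to 3 h, rose from 1 to 4 h in 9 cases.

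Over the rest of embryogenesis the genes that changed at 3 h took different courses. Of the 2514 annotated rises, 66 had their highest mean at 3 h itself and 408 an hour later, with 239 at 5 h and a further 180 at 6 h. Of all 10861 annotated genes tested, 398, 735, 345 and 261 were highest at these times. The share of rises highest at 4 h was thus 16.2%, against 6.77% of the genes tested, while at 0 h the shares were 10.1% (253 genes) and 10.5%. Of the 2191 annotated falls, 317 were highest at 0 h and 499 at 1 h, another 487 at 2 h, and 745 at 20 h. Here the shares were 14.5%, 22.8%, 22.2% and 34.0%, against 10.5%, 8.54%, 13.7% and 23.6% of the genes tested. A rise cannot be highest at 2 h nor a fall at 3 h. Leaving out the late-embryo genes, 1298 genes fell that had at least 5 RPKM at 1 h. Of these, 556 reached at least 50% of their 1 h level again at some time from 6 to 20 h, and 742 did not. Of those that did not, 109 stayed below 10% of it. Late-embryo genes were defined by a higher level at 18 and 20 h than at 4 h. Leaving them out thus also took out RNAs that fell and later returned. *dl*, with 20.7 RPKM at 1 h, 0.378 RPKM at 4 h and 12.6 RPKM at 20 h, was 1 of them. The split into 556 and 742 is partly set by this choice, and the share that returned may be too low.

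The genes that rose and fell differed in structure. Length does not enter the fold change, but longer genes collect more counts and so pass the filter and the test more easily. Protein-coding genes that rose had a median exon length of 2034 bases and a median span of 2604 bases. Those that fell had medians of 2426 and 3657 bases, and all protein-coding genes tested 2045 and 2740 bases. A single uninterrupted exon was found in 12.7% of the protein-coding rises, 8.06% of the falls and 10.7% of those tested. The rises were thus near the genes tested in length, and the falls were longer. These are descriptions without a test, since genes are not independent replicates.

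By type, 222 of 493 noncoding RNA genes (45.03%) rose and 49 fell (9.94%). Of 77 snoRNA genes, 30 rose and 0 fell, and these lie mostly within other transcripts and have no poly(A) tail of their own. By chromosome, the X had the lowest share of rises among the chromosome arms, with 360 of 1779 (20.2%), and the highest share of falls, with 438 (24.6%). On 2L, 2R, 3L and 3R the shares of rises were 22.1% to 25.1% and those of falls 17.99% to 19.8%, and on the fourth chromosome, with 91 genes tested, 25.3% and 15.4%.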

How the data were processed

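Whole-embryo poly(A) RNA had been sequenced by the authors as single reads from stranded libraries, aligned to BDGP6 with STAR 2.4.0h and counted per gene with HTSeq 0.6.1p1 in union mode. The values they deposited are raw counts per gene, with no normalization. Reads over 2 genes are left out by union mode, so that genes with overlapping exons are undercounted, and the strand setting of the counting is not given in the sources used here.

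The 11065 genes that passed filterByExpr were tested with edgeR 4.0.16 (R 4.3.3): TMM factors, a quasi-likelihood fit of all 56 samples with 1 coefficient per time point, so that all share the estimate of spread, and Benjamini-Hochberg adjustment over all genes tested. A gene was called where the adjusted p was below 0.05 and the log2 fold change 1 or more in either direction. The 5 total lines of each file were dropped. RPKM used all counts on genes and the union of exons in Ensembl release 115, which matched 17252 of 17558 gene IDs. The unmatched IDs took 4.44% to 5.62% of the counts in the 8 samples. P-values measure the spread between the deposited samples.

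The comparison, its members and the 26 gene lists were chosen with earlier results of these data known, so that they are a description and no independent evidence. The rule for naming took the 12 largest rises and falls that averaged 100 counts or more and did not overlap between the times. It also took up to 4 called members per list by the size of the change, and *zld*, *smg*, *Sxl* and *nanos*. Fewer called members are named for some lists, and members not called are named for part of the lists only. Other members were added after their values were seen. A member of the maternal cellularization genes is not reported here. For 9 list symbols no gene ID was matched. On simulated counts for 3 h against 2 h, with a 4-fold change in known genes, edgeR recovered 192 of 194 (10533 genes run). The simulated samples shared a mean per gene outside the changed genes and a fixed spread, without the differences seen between the 3 h replicates. The recovery thus checks that the fit runs properly and does not give its power or false calls in the real samples. DESeq2 1.42.0 and the other alternatives are treated in the closing section. Same-numbered samples of 3 h and 2 h did not deviate together (correlations of -0.073 to 0.045), so the numbers were not used as pairs.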

Additional observations from a re-analysis of the deposited data

Results flagged for a closer look

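Single samples that stood apart from the other 3 of their time point were found in 5 of the 148 groups of 4 values printed, by Dixon's ratio of the gap to the range at its 95% limit. Chance alone gives about 1 such group in 20. At 3 h, replicate 2 was the highest for *osk*, at 3.04 RPKM, and for *gnu*, at 9.96 RPKM. At 2 h, replicate 3 was the lowest for *smg*, at 372 RPKM, and the highest for *Dronc*, at 103 RPKM, and replicate 1 was the lowest for *pnr*, at 0.504 RPKM. In *osk*, *gnu*, *smg* and *pnr* the 3 h and 2 h samples were apart with or without these values. Why these samples stood apart was not tested.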

How the results depend on the processing

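The number of rises stayed within 1.5 times of 2566 in all alternatives but a limit of 2 on the log2 fold change, which left 1543. The number of falls was more sensitive. It was 1438 in the fit of the 8 samples alone (1427 of them among the 2229), 3761 with no fold threshold, 826 with a limit of 2 on the log2 fold change, and 1458 without the genes that were at least 10 times higher at 18 and 20 h than at 4 h, an alternative added after seeing the data. Leaving out 1 library gave 2514 to 2758 rises and 1731 to 2555 falls. The replicate block gave 2558 rises and 2248 falls, of which 2547 and 2193 were shared with the fit without it, but the replicate numbers did not pair the samples. With DESeq2 there were 3015 rises and 1875 falls, with its size factors in edgeR 2806 and 1838, without the filter 3477 and 1632, and without mitochondrial genes in the library sizes 2941 and 1644. The count from 1 to 4 h in its 8 samples alone was 2544 rises and 2209 falls.

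Over the 445 members and named genes tested, 6214 values were recomputed and no call turned its direction. In 29 genes a call was lost in at least 1 alternative fit, and in 44 a call was gained. The median log2 fold changes of cell cycle regulators and of oocyte meiosis genes changed sign with the scaling (-0.16 to 0.08 and -0.22 to 0.01). The planned motif alternative in promoters was not run, since no promoter sequences were used here. Genes at a few counts, such as *Ccp84Ab* and *Hsp70Bb*, were limited by depth. The cause of these differences was not tested.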
